A study of Schizosaccharomyces pombe with 4 samples.

Results

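Respiratory chain and ATP synthase genes were taken from the array by symbol: every gene named cox, qcr, atp, sdh, cyt, cyc or rip followed by a number. They numbered 46 of the 4880 genes named on the array, each measured by 1 spot, and 45 had a value on all 4 arrays. All 46 lie in the nuclear genome. A further 15 genes of the annotation match these names but are not on the array, 6 of them mitochondrially encoded, so the results concern nuclear-encoded parts alone. By role, the 45 fall into 28 subunits (3 of complex II, 7 of complex III, 6 of complex IV, 11 of ATP synthase, and cytochrome c) and 17 genes of assembly or of haem attachment to cytochromes.

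The samples were 4 two-colour arrays of polyA RNA from Schizosaccharomyces pombe, the fission yeast. On every array, RNA from cells moved to 36 °C for 30 min (channel 1) was set against RNA from log-phase cells of that strain kept at 25 °C (channel 2), both in YES, a rich liquid medium. There were 2 arrays of the wild-type strain, JV558, and 2 of JV565, whose mmi1-ts3 allele makes Mmi1 temperature-sensitive. Mmi1 is the protein that marks meiotic transcripts for destruction in growing cells. Each strain was set against itself, so the strains' levels at 25 °C were never compared, and the shift combines heat with, in the mutant, any loss of Mmi1 function.

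A value is the log2 ratio of 36 °C over 25 °C after subtraction of the array's median for the 4771 genes tested, and pairs of values are given in the order replicate 1, replicate 2. The log base and the direction were read from the values. The highest deposited value, 7.81, exceeds the 4.82 that a base-10 logarithm of a 16-bit scanner range allows, but natural logarithms are possible, and every change would then be further from 0. Positive is likely to mean higher at 36 °C, since 11 of 11 measured heat shock genes lay above 0 on all 4 arrays, with hsp16 highest at 7.30. No dye swap is named in the labels, so any bias of the dyes that all arrays share remains in every response, while the difference between strains is free of it. The mmi1 transcript read −0.24 and 1.01 in the wild type and 0.24 and 0.66 in mmi1-ts3. These values do not check the labels, since a temperature-sensitive allele acts on the protein.

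In respiration, complex II (succinate dehydrogenase) and alternative NADH dehydrogenases, which fission yeast uses in place of complex I, pass electrons to ubiquinone. Complex III hands them to cytochrome c, and complex IV to oxygen. The proton gradient built by complexes III and IV drives ATP synthase, a membrane part joined by a central and a peripheral stalk to a catalytic F1 head. On glucose, fission yeast ferments but still needs working mitochondria.

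Over both strains, 14 of the 45 genes rose with the shift and 3 fell, by limma at an adjusted p under 0.05 (Benjamini-Hochberg over all 4771 genes). That is 31.1% higher and 6.67% lower, where the same test called 23.1% of all genes higher and 24.8% lower. The 14 were atp11, qcr6, atp5, atp17, atp15, cyc3, atp14, cyc1, sdh2, rip1, atp2, atp7, cox18 and cox4, and the 3 were atp23, cox24 and cyc2. The changes were small: 2 of the 45 genes, atp11 and atp23, moved by at least 2-fold, against 883 of the 4771 tested. The median absolute change was 0.27, against 0.45 over all genes. The median over the 45 was 0.22, against 0.02 over all genes, and 33 of 45 means lay above 0 (73.3%, against 51.5% of all genes). On all 4 arrays, 19 genes lay above 0 (42.2%, background 29.9%) and 3 below (6.67%, background 31.6%). Of the 28 subunits, 11 rose (39.3%, against 23.1% of all genes) and 0 fell, with 14 above 0 on all 4 arrays (50%). Of the 17 genes of assembly and haem attachment, 3 rose and 3 fell (17.6% each way, against 23.1% and 24.8%). The subunits and these genes were not compared by a test. With 1 array left out, which leaves 1 array for that strain, fewer of the 45 genes rose over both strains in every fit. Without wild-type replicate 1 or either mmi1-ts3 array, the share that rose lay below the share of all genes. Without wild-type replicate 2 it stayed above. Other genes passed in such fits: atp16 (0.51), cox10 (0.60) and qcr8 (0.71) without wild-type replicate 2, and atp10 (0.69) without wild-type replicate 1.

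**Figure D1:**
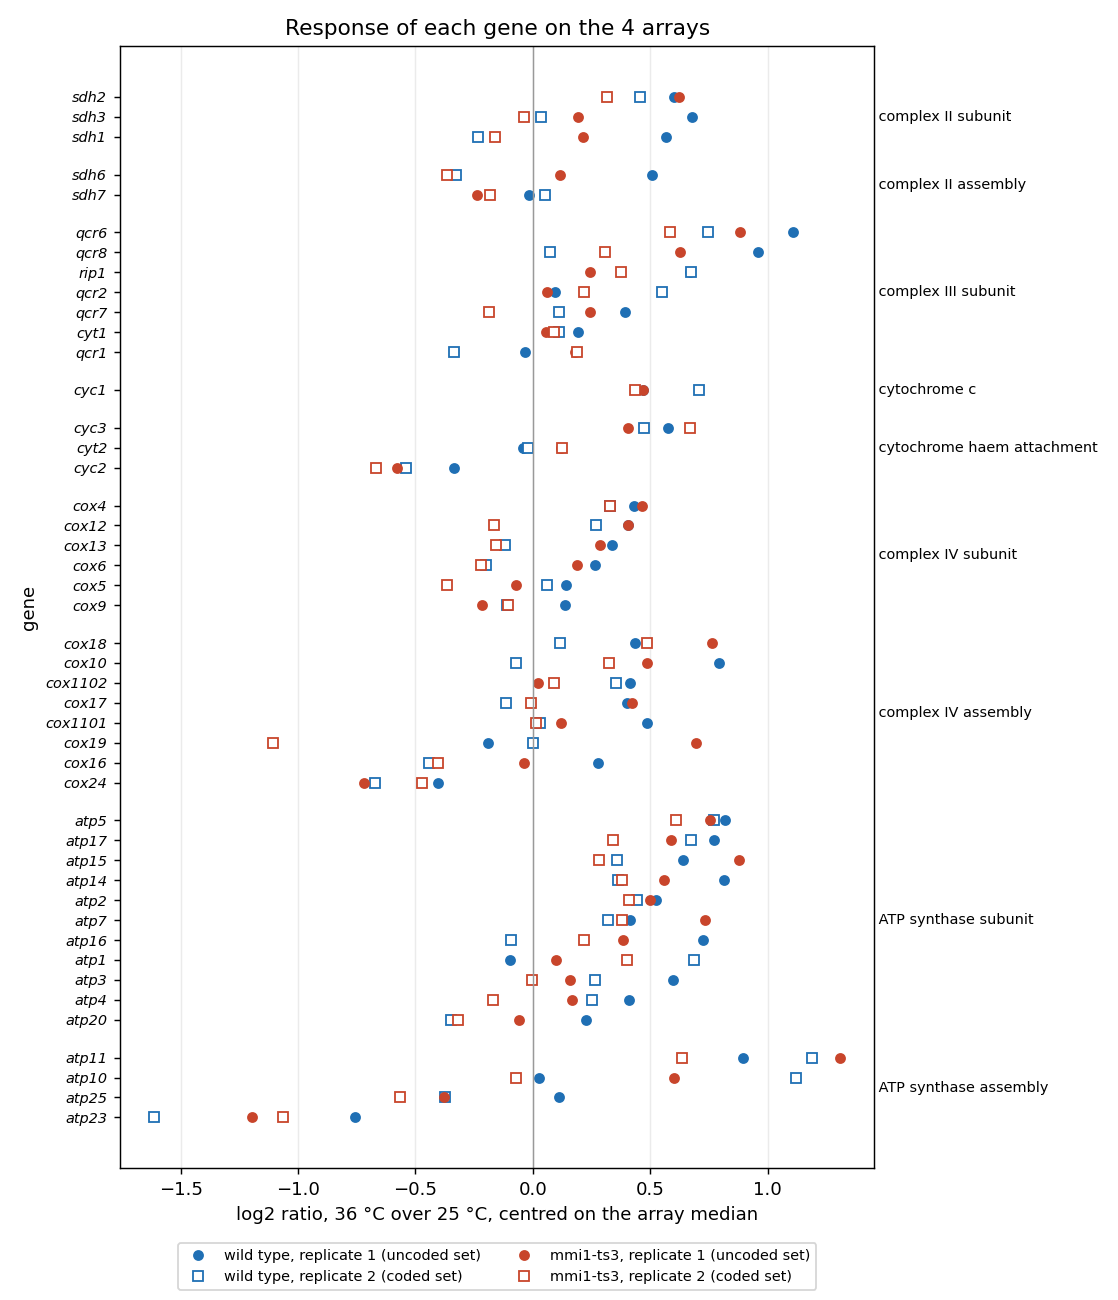
Log2 ratio of 36 °C over 25 °C (horizontal axis, centred on each array's median) for each of the 45 genes with 4 values, grouped by complex and role; each symbol is 1 array, blue for the wild type and red for mmi1-ts3, filled for the uncoded and open for the coded array set. The ATP synthase subunits lie mostly above 0, the complex IV subunits on either side of it, and atp11 and atp23 stand farthest out.

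The arrays form 2 sets, those whose titles carry a code (replicate 2 of each strain) and those without one (replicate 1), and the genes read higher on the uncoded set. Their median was 0.32 on the uncoded and 0.06 on the coded set, and 36 of 45 were higher on the uncoded (80%, against 56.4% of all genes). By array, the median was 0.41 and 0.11 in the wild type and 0.24 and 0.09 in mmi1-ts3. The sources used here do not say what the code marks. With the set as a block every call was kept and qcr8 was gained over both strains. Each set holds 1 array of each strain, so the block leaves every mean unchanged and cannot show whether a set biases the means. Across the 45 genes, the strain means correlated at r = 0.91 and the set means at r = 0.79, against 0.94 and 0.87 over all genes. Genes are not independent replicates, and the strain means share array sets just as the set means share strains. The level also varied along the value table, though medians of unrelated rows would spread too and that spread was not measured: the median of the 51 rows around a spot ran, from the 5th to the 95th percentile of genes, from −0.33 to 0.33 on wild-type replicate 1 and from −0.58 to 0.70 on replicate 2. Most changes seen here are within that range, so values centred on those rows, chosen after the data were seen, are given where they alter a call. With that centring 14 genes again rose over both strains, but only 8 of them were among the 14 named above. The 3 falls were kept, and atp25 was added to them.

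ATP synthase subunits had the highest median of the complexes, 0.46, with 0.60 and 0.36 on the wild-type and 0.50 and 0.34 on the mmi1-ts3 arrays. Of the 11, 6 rose (54.5%, against 23.1% of all genes), 0 fell and 5 did not pass. The peripheral stalk and membrane part gave 4 of the 6, and the F1 head and central stalk 2. The differences between complexes were not tested.

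Of the ATP synthase subunits, atp5, which caps the F1 head at the top of the peripheral stalk, changed most. It read 0.82 and 0.77 in the wild type and 0.75 and 0.61 in mmi1-ts3. All 4 values are high and close together, and the strains lie next to each other without overlapping. The rise was 1.67-fold (0.74 ± 0.12 SE; limma, adjusted p = 0.00454), and it passed in each strain alone too. Next was atp17, a small subunit of the membrane part, with 0.77 and 0.67 in the wild type and 0.59 and 0.34 in mmi1-ts3. The wild type lies above the mutant on every array. Its rise was 1.51-fold (0.59 ± 0.12 SE; adjusted p = 0.0107), and 0.72 ± 0.17 SE in the wild type alone (adjusted p = 0.03).

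Another 2 genes of the peripheral stalk rose. The subunit gene atp14 read 0.81 and 0.36 in the wild type and 0.56 and 0.38 in mmi1-ts3, and atp7 read 0.41 and 0.32 in the wild type and 0.73 and 0.38 in the mutant. The strains overlap for both genes, and the uncoded arrays read higher than the coded ones. The rises were 1.44-fold for atp14 (0.53 ± 0.13 SE, adjusted p = 0.0231) and 1.38-fold for atp7 (0.46 ± 0.13 SE, adjusted p = 0.029). In the F1 part, atp2, the catalytic beta subunit, gave 0.53 and 0.44 in the wild type and 0.50 and 0.41 in mmi1-ts3. Its 4 arrays differ by little, and the rise was 1.38-fold (0.47 ± 0.12 SE, adjusted p = 0.0202). The central stalk gene atp15 (epsilon subunit) gave 0.64 and 0.36 in the wild type and 0.88 and 0.28 in the mutant, a rise of 1.45-fold (0.54 ± 0.15 SE, adjusted p = 0.0311) that was larger on the uncoded than on the coded array of each strain.

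The remaining subunits did not pass. The alpha subunit gene atp1 read −0.10 and 0.69 in the wild type and 0.10 and 0.40 in mmi1-ts3, with the coded array higher in each strain, the reverse of most genes. Means were 0.31 for atp16, 0.27 for atp1, 0.25 for atp3 and 0.16 for atp4. The lowest was atp20, a small membrane subunit that helps the enzyme form dimers, with 0.23 and −0.35 in the wild type and −0.06 and −0.32 in the mutant and a mean of −0.13 ± 0.15 SE. Its 95% confidence interval, −0.50 to 0.24, reaches 0. The interval of atp1, −0.15 to 0.69, takes in the rise of the beta subunit. Without wild-type replicate 2, the mean of atp20 turned to 0.0182.

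Most of these calls were lost with fewer arrays. The rise of atp5 passed whichever array was left out (log2 0.70 to 0.77). The rise of atp17 was lost without mmi1-ts3 replicate 1, that of atp15 without wild-type replicate 1 or mmi1-ts3 replicate 1, and that of atp14 without either of these or mmi1-ts3 replicate 2. Those of atp2 and atp7 were lost whichever array was left out, so both calls needed every array. With 1 array left out, the means ran 0.53 to 0.65 for atp17, 0.39 to 0.69 for atp15, 0.42 to 0.64 for atp14, 0.45 to 0.49 for atp2 and 0.37 to 0.55 for atp7. Centred on neighbouring rows, atp2 (0.33) and atp15 (0.21) no longer passed, while atp3 (0.36) and atp4 (0.41) did. The rows around atp15 had a median of 0.85 on wild-type replicate 2, against −0.26 on replicate 1.

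ATP synthase assembly genes moved in opposite directions and held the largest changes of all 45 genes. The chaperone gene atp11, whose product delivers the beta subunit to the F1 head, read 0.90 and 1.19 in the wild type and 1.31 and 0.64 in mmi1-ts3. All 4 values are high, and the mutant arrays bracket both wild-type ones. The rise was 2.01-fold (1.01 ± 0.16 SE; limma, adjusted p = 0.00453), 1.04 ± 0.22 SE in the wild type (adjusted p = 0.0228) and 0.97 ± 0.22 SE in mmi1-ts3 (adjusted p = 0.0228). The gene atp23, known from budding yeast as a protease that matures a mitochondrially encoded subunit of the membrane part, read −0.76 and −1.61 in the wild type and −1.20 and −1.06 in the mutant. All 4 arrays are low, and the wild-type arrays bracket the mutant ones. It fell to 0.448-fold (−1.16 ± 0.17 SE; adjusted p = 0.00381), with −1.19 ± 0.24 SE in the wild type (adjusted p = 0.0203) and −1.13 ± 0.24 SE in mmi1-ts3 (adjusted p = 0.0189). Both calls held whichever array was left out, with ranges of 0.84 to 1.17 and −1.37 to −0.94, and with neighbouring rows as the centre (0.83 and −0.95).

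The partner chaperone gene atp12, which serves the alpha subunit, had no value on wild-type replicate 2. It read 0.49 on wild-type replicate 1 and 0.83 and 0.81 in mmi1-ts3. Fitted with the genes that have at least 3 values, its mean was 0.66 ± 0.15 (SE, adjusted p = 0.0258), with the lone wild-type array assumed to vary like the mutant ones. The other assembly genes did not pass: atp10 read 0.03 and 1.12 in the wild type and 0.60 and −0.07 in mmi1-ts3, with wild-type replicate 2 far above the rest, and atp25 read 0.11 and −0.38 in the wild type and −0.38 and −0.57 in the mutant. Centred on neighbouring rows, atp25 passed as lower (−0.49).

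Complex III subunits had a median of 0.23 over 7 genes. Of these, 2 rose (28.6%, against 23.1% of all genes), 0 fell and 5 lay above 0 on all 4 arrays (71.4%, background 29.9%). The largest rise was that of qcr6, which encodes the acidic hinge protein near cytochrome c1. It read 1.11 and 0.75 in the wild type and 0.88 and 0.59 in mmi1-ts3, all high, with overlap between the strains. The rise was 1.78-fold (0.83 ± 0.13 SE; limma, adjusted p = 0.00487), 0.93 ± 0.19 SE in the wild type (adjusted p = 0.0197) and 0.73 ± 0.19 SE in mmi1-ts3 (adjusted p = 0.0322). It held whichever array was left out (0.74 to 0.92). With neighbouring rows as the centre it was 0.52 and passed over both strains, but in neither strain alone.

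The Rieske iron-sulfur protein gene rip1 read 0.67 and 0.67 in the wild type and 0.24 and 0.37 in mmi1-ts3. Both wild-type arrays lie above both mutant ones. It rose 1.4-fold over both strains (0.49 ± 0.12 SE, adjusted p = 0.0178) and by 0.67 ± 0.16 SE in the wild type (adjusted p = 0.0325), with 0.31 ± 0.16 SE in mmi1-ts3, which did not pass (adjusted p = 0.197). The rise was lost without any array but wild-type replicate 1 (0.46 to 0.52). By contrast cyt1, the gene of cytochrome c1 and the other redox subunit here, read 0.19 and 0.11 in the wild type and 0.05 and 0.09 in the mutant. Its mean was 0.11 ± 0.11 SE, which did not pass, and its interval of −0.17 to 0.40 overlaps that of rip1, 0.20 to 0.78; the difference between them was not tested. Centred on neighbouring rows, the mean of cyt1 was −0.15.

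Among the other complex III subunits, qcr8 had a mean of 0.49 but arrays from 0.07 to 0.96, and did not pass; with the array set as a block, without centring, with neighbouring rows as the centre or without wild-type replicate 2 it did. The means of qcr2 (0.23) and qcr7 (0.14) did not pass. The core subunit gene qcr1, the lowest, had a mean of −0.001 with an interval of −0.31 to 0.30. It read −0.03 and −0.34 in the wild type and 0.18 and 0.19 in mmi1-ts3, below 0 in the first strain and above it in the second. A mean this close to 0 changes sign with small shifts, as it did without centring, with quantile normalization, with neighbouring rows as the centre, and without wild-type replicate 2 or mmi1-ts3 replicate 1 (up to 0.08).

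Cytochrome c, the carrier between complexes III and IV, is encoded by cyc1, which read 0.47 and 0.71 in the wild type and 0.47 and 0.44 in mmi1-ts3. Wild-type replicate 2 stands above the other 3 arrays, which agree closely. The rise over both strains was 1.43-fold (0.52 ± 0.12 SE; limma, adjusted p = 0.0161), and it was lost without any array but wild-type replicate 1 (0.46 to 0.58). The 51 rows around its spot had medians of 0.32 and 0.37 on the wild-type and 0.47 and 0.48 on the mutant arrays. Relative to those rows the mean was 0.11, which did not pass.

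Complex IV subunits had a median of 0.05 over 6 genes. These gave 1 rise (16.7%, against 23.1% of all genes), 0 falls and 1 above 0 on all 4 arrays (background 29.9%). Their medians were 0.30 and 0.24 on the uncoded wild-type and mutant arrays and −0.03 and −0.16 on the coded ones. The sign of the median followed the array set, but gene by gene only cox6 and cox13 changed sign that way. By contrast, cox4 lay above 0 on all 4 arrays and cox5 divided by strain. The mean of the 2 uncoded arrays was above that of the coded ones for all 6. The one that rose, cox4, gave 0.43 and 0.33 in the wild type and 0.46 and 0.33 in mmi1-ts3, with little spread and with overlap between the strains. Its rise was 1.31-fold (0.39 ± 0.12 SE; adjusted p = 0.0391), and it was lost whichever array was left out (0.35 to 0.42). The spot of cox4 is listed 2 rows from that of cyc1, and the rows around it had medians of 0.32, 0.43, 0.47 and 0.44 on the 4 arrays in the same order. Relative to them the mean of cox4 was −0.03.

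None of the other complex IV subunits passed. The lowest, cox9, read 0.14 and −0.11 in the wild type and −0.22 and −0.11 in the mutant, with a mean of −0.07 ± 0.12 SE and an interval of −0.37 to 0.23; relative to neighbouring rows it was 0.0085. For cox6 the uncoded arrays gave 0.26 and 0.19 and the coded ones −0.20 and −0.22, wild type first. The pattern of cox13 was the same, with 0.34 and 0.29 against −0.12 and −0.16. For both genes the strains overlap and the sets do not. The mean of cox12 was 0.23, and 0.52 with neighbouring rows as the centre, which passed.

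**Figure D2:**
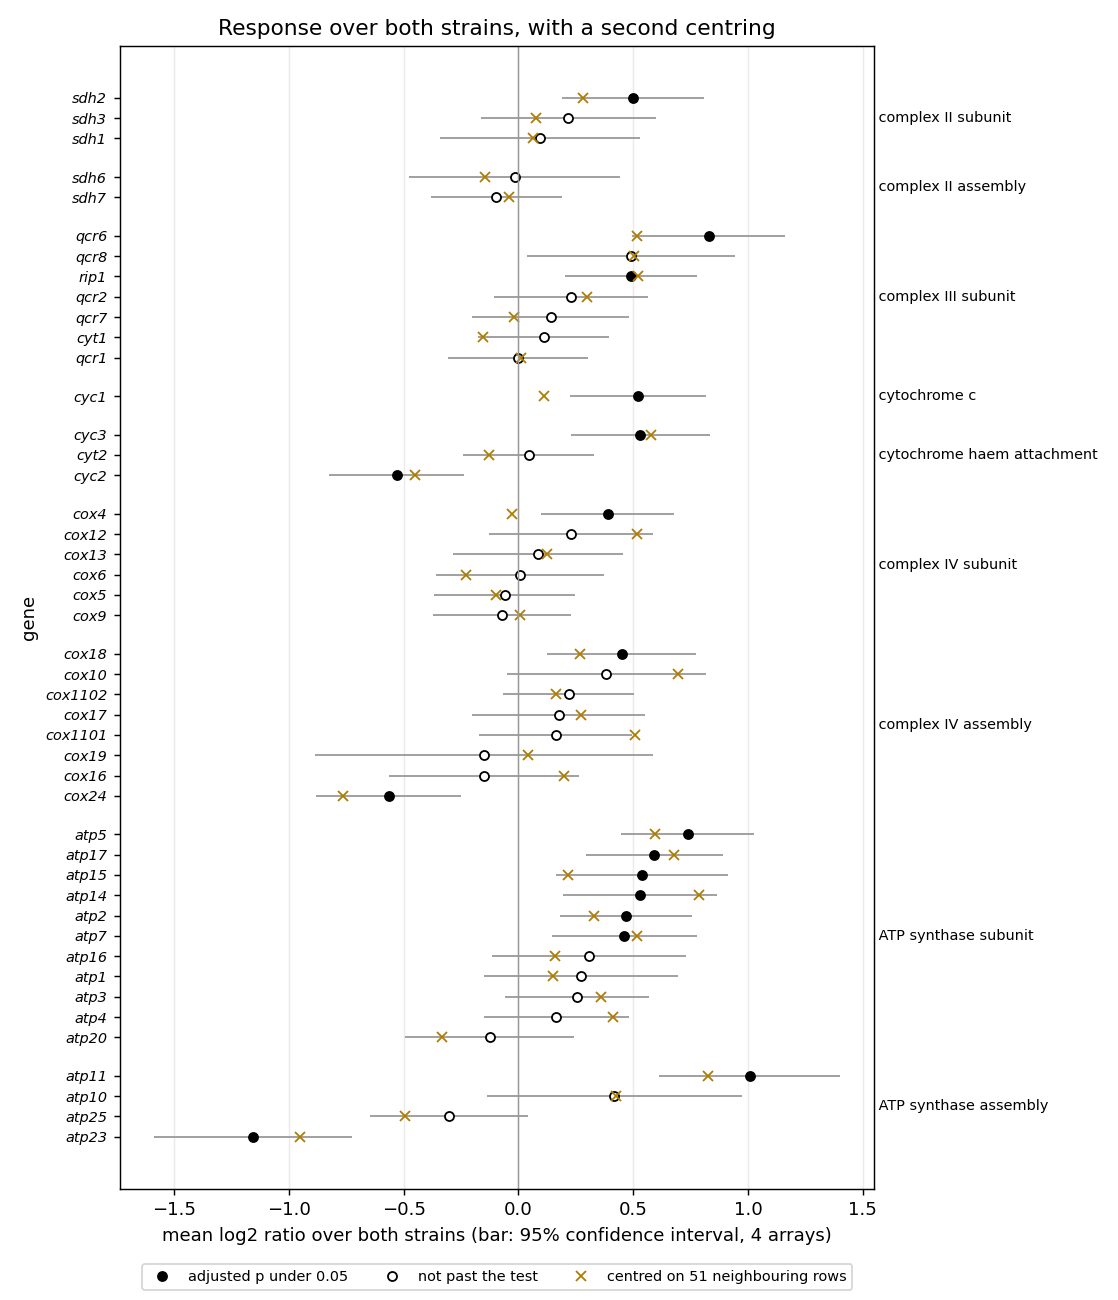
Mean log2 ratio of each gene over both strains (circles, filled where the adjusted p was under 0.05) with its 95% confidence interval from the model over 4 arrays, and the mean after centring on 51 neighbouring rows of the value table (crosses). The crosses of cox4 and cyc1 fall to −0.03 and 0.11, whereas those of atp11 (0.83) and atp23 (−0.95) stay far from 0.

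Of the 8 genes of complex IV assembly, 1 rose and 1 fell (12.5% each way), around a median of 0.17. Over all genes, 23.1% rose and 24.8% fell. The insertase gene cox18, which threads a mitochondrially encoded subunit into the inner membrane, read 0.43 and 0.12 in the wild type and 0.76 and 0.49 in mmi1-ts3. Both mutant arrays lie above both wild-type ones, and the rise was 1.37-fold over both strains (0.45 ± 0.13 SE; limma, adjusted p = 0.0347). In mmi1-ts3 alone it was 0.63 ± 0.18 SE (adjusted p = 0.0479) and in the wild type 0.27 ± 0.18 SE, which did not pass. The mmi1-ts3 call lies near the threshold and was also lost with scaling, with a variance trend, with neighbouring rows as the centre (0.33) and without either mmi1-ts3 array; its adjusted p ran from 0.022 to 0.372 over the alternatives. The call over both strains was lost without any array but wild-type replicate 2 (0.37 to 0.53) and with neighbouring rows as the centre (0.27). The gene cox24, placed here by its name, read −0.40 and −0.67 in the wild type and −0.72 and −0.47 in the mutant, low on all 4 arrays with the strains overlapping. It fell to 0.676-fold (−0.57 ± 0.13 SE, adjusted p = 0.0147), a call lost without wild-type replicate 2 or mmi1-ts3 replicate 1 (−0.63 to −0.50).

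Copper delivery to complex IV uses cox17, cox19 and the cox11 gene, which fission yeast carries as cox1101 and cox1102. None of them passed. The means of cox1101 and cox1102 were 0.16 and 0.22; near-identical copies can bind each other's RNA on an array, so they may not be separate measures. The values of cox19 were −0.19 and 0.00 in the wild type but 0.70 and −1.11 in mmi1-ts3, the widest gap between arrays of a strain among the 45 genes. The rows around its spot read 0.18 and −0.70 on those mutant arrays, against −0.17 and −0.07 on the wild-type ones, so the neighbouring spots are also lowest on mmi1-ts3 replicate 2 and highest on its replicate 1. Without mmi1-ts3 replicate 1 it passed as lower (−0.60). The haem O synthase gene cox10 had a mean of 0.38, which did not pass, and 0.70 with neighbouring rows as the centre, which did, as did cox1101 (0.51).

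Among 3 genes that share names with budding yeast factors for haem attachment to c-type cytochromes, cyc3 rose, cyc2 fell and cyt2 did not pass. The values of cyc3 were 0.58 and 0.47 in the wild type and 0.41 and 0.67 in mmi1-ts3, and the mutant arrays bracket the wild-type ones. It rose 1.44-fold (0.53 ± 0.12 SE; limma, adjusted p = 0.016), a call lost without mmi1-ts3 replicate 2 (0.47 to 0.60). The values of cyc2 were −0.34 and −0.54 in the wild type and −0.58 and −0.67 in the mutant, low throughout and lower in the mutant. It fell to 0.692-fold (−0.53 ± 0.12 SE, adjusted p = 0.0146) and by 0.62 on the log2 scale in mmi1-ts3 alone (adjusted p = 0.0367). The fall over both strains was lost without wild-type replicate 2 or either mutant array (−0.58 to −0.48).

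Complex II, which is also an enzyme of the tricarboxylic acid cycle, had 1 rise among 3 measured subunits (33.3%, against 23.1% of all genes). The iron-sulfur subunit gene sdh2 read 0.60 and 0.46 in the wild type and 0.62 and 0.32 in mmi1-ts3, with overlap between the strains. Its rise was 1.41-fold (0.50 ± 0.12 SE; limma, adjusted p = 0.0215), lost without replicate 1 of either strain (0.42 to 0.57) and with neighbouring rows as the centre (0.28). The flavoprotein gene sdh1 read 0.57 and −0.24 in the wild type and 0.21 and −0.16 in the mutant, above 0 on the uncoded arrays and below it on the coded ones, with a mean of 0.10 ± 0.17 SE that turned to −0.10 without wild-type replicate 1. The membrane anchor gene sdh3 had a mean of 0.22. Neither passed. The assembly genes did not pass either: sdh6 read 0.51 and −0.33 in the wild type and 0.12 and −0.37 in the mutant, and sdh7 read −0.02 and 0.05 in the wild type and −0.24 and −0.18 in the mutant, with means of −0.02 and −0.10.

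Within each strain, fewer genes passed. In the wild type 5 rose (atp11, qcr6, atp5, atp17 and rip1) and 1, atp23, fell. That is 11.1% and 2.22% of the 45, where 13.5% of all genes were called higher and 14.5% lower. All 5 rises were lost when either wild-type array was left out, which leaves the value of the other array printed above, and rip1 also when a mutant array was; the fall of atp23 was lost without wild-type replicate 2. In mmi1-ts3, 4 rose (atp11, qcr6, atp5 and cox18) and 2 fell (atp23 and cyc2), 8.89% and 4.44%, where 14.9% and 19.6% of all genes were called. Without mmi1-ts3 replicate 1, 0 of these 6 still passed, and without replicate 2, atp11 and atp23 did. With the array set as a block, the wild type had 9 rises, adding atp14, atp2, cyc1 and sdh2, and mmi1-ts3 had 8, adding atp15, atp7, cyc3 and sdh2; cox24 also fell in mmi1-ts3. With neighbouring rows as the centre, the wild type lost qcr6 (0.55) and gained atp14 (0.79), cox10 (0.81), cox1101 (0.65) and cyc3 (0.57) as higher and cox24 (−0.56) as lower. In mmi1-ts3 that centring lost qcr6 (0.49) and cox18, and gained atp14 (0.79), atp17 (0.60), cox10 (0.58) and cyc3 (0.59) as higher and atp25 (−0.62) and cox24 (−0.97) as lower. All the genes called in a strain were among the 17 called over both strains, which share their arrays.

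The strain difference asks whether cells with the mmi1-ts3 allele responded differently from the wild type. By limma, 0 of the 45 genes were higher in mmi1-ts3 and 0 lower, as for all genes (0% in each direction). At an unadjusted p under 0.05 there were 90 of the 4771 genes tested, and 0 of the 45, whose smallest was 0.169. With so low a share over all genes, 0 of 45 is no result about these genes. Differences ran from −0.36 to 0.37, and the intervals allow more: their median half-width was 0.67 on the log2 scale. The median difference was −0.12, with −0.18 between the uncoded arrays and −0.04 between the coded ones, against −0.07 over all genes. Differences lay below 0 for 35 of 45 genes (77.8%, against 60.8% of all genes). Both mutant arrays lay below both wild-type arrays for 11 genes (24.4%, background 20.4%) and above for 3 (6.67%, background 9.31%).

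Among genes whose strains do not overlap, rip1 differed most downward, by −0.36 ± 0.23 SE with an interval of −0.94 to 0.21. Within the uncoded and coded sets it was −0.43 and −0.30. Next came atp3, the gamma subunit of the central stalk, at −0.35 ± 0.25 SE, with 0.60 and 0.27 in the wild type and 0.16 and 0.00 in mmi1-ts3, and atp25 at −0.34 ± 0.28 SE. The 3 that were higher in mmi1-ts3 were qcr1 (0.37 ± 0.24 SE), cox18 (0.35 ± 0.26 SE) and cyt2 (0.16 ± 0.23 SE). For cox18 the difference was 0.33 and 0.37 within the sets, and its interval, from −0.30 upward, includes 0. Adjusted p-values were 0.998 for each of the 6. For the genes that changed most with the shift, atp11 and atp23, the strain differences were −0.07 ± 0.32 SE and 0.06 ± 0.34 SE, each of opposite sign in the 2 sets (0.41 and −0.55 for atp11, −0.44 and 0.55 for atp23).

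**Figure D3:**
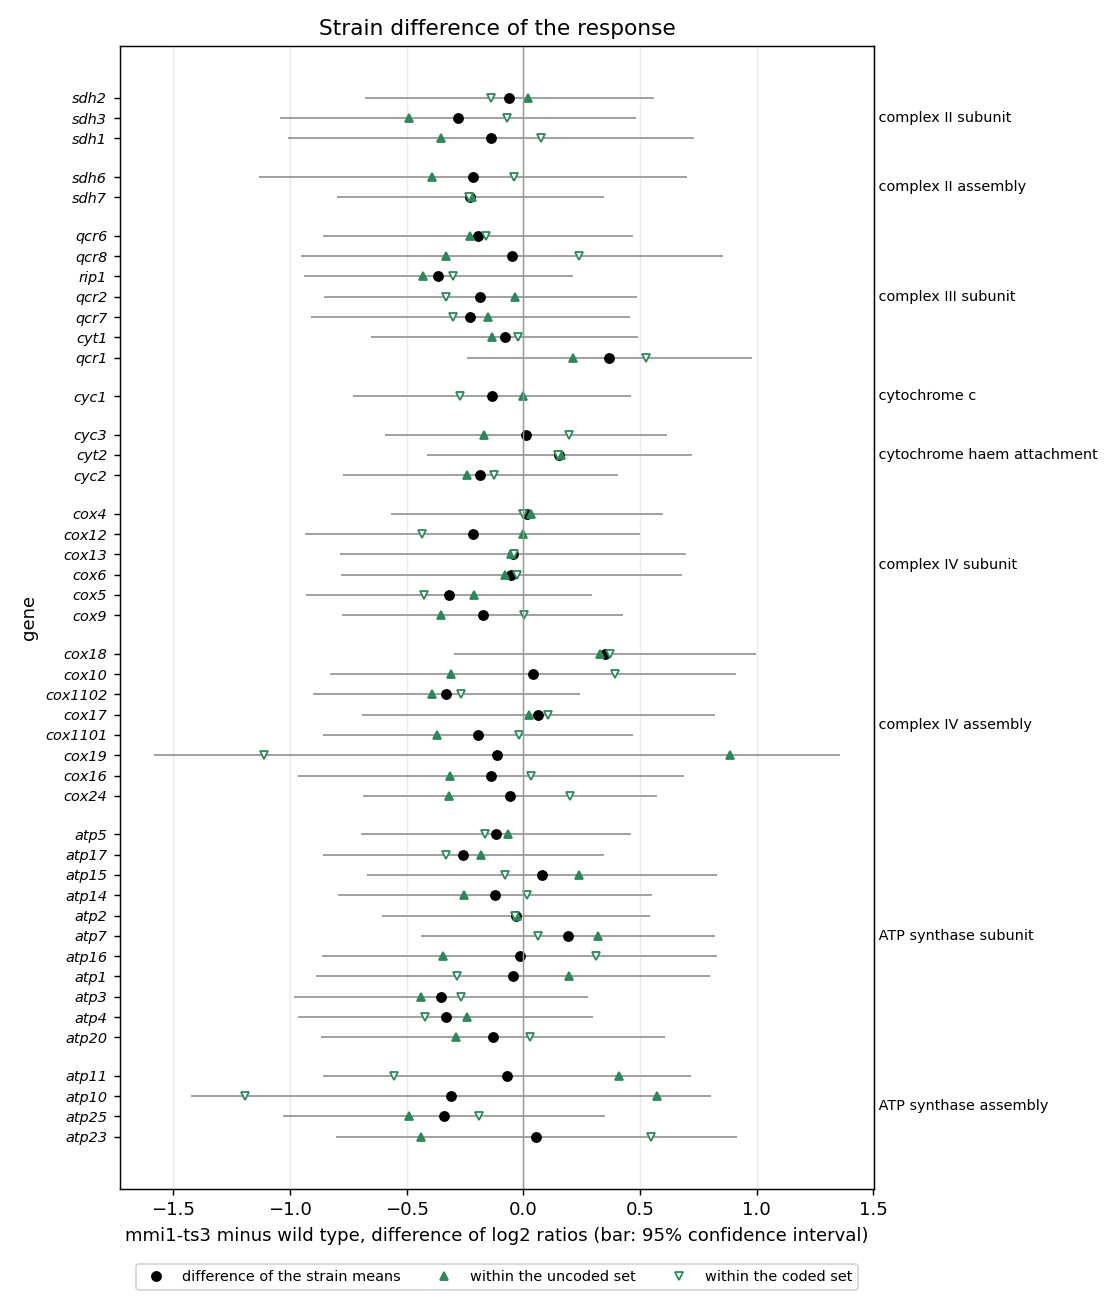
Difference of the response between mmi1-ts3 and the wild type for each gene (black circles) with its 95% confidence interval, and the difference within the uncoded (filled triangles) and coded (open triangles) array sets, each of which is 1 array against 1. The differences of all 45 genes lie between −0.36 and 0.37, and every interval includes 0.

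Genes that feed electrons into the chain are described next by their counts over both strains; the lists were not compared by a test. Of 10 measured genes of the tricarboxylic acid cycle, 5 rose (50%, against 23.1% of all genes) and 0 fell, with a median of 0.55. The malate dehydrogenase gene mdh1 was at 2.45 ± 0.12 SE, the aconitase gene aco1 at 1.10 ± 0.14 SE and the succinyl-CoA ligase gene lsc2 at 0.91 ± 0.25 SE. For mdh1 the arrays read 2.42 and 2.53 in the wild type and 2.52 and 2.33 in mmi1-ts3, high and close together. Of 5 genes of alternative electron entry, 3 rose (60%, against 23.1% of all genes). The glycerol-3-phosphate dehydrogenase gene of mitochondria, gut2, was at 1.67 ± 0.16 SE and cir2 at 0.74 ± 0.12 SE. The gene ndi1, of an NADH dehydrogenase that takes the place of complex I, was at 1.03 ± 0.12 SE.

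Ubiquinone synthesis had 4 rises and 1 fall among 13 genes (30.8% and 7.69%, against 23.1% and 24.8% of all genes). The median was 0.24, with coq7 at 1.09 ± 0.22 SE, coq5 at −0.78 ± 0.13 SE and coq3 at 0.51 ± 0.13 SE. One entry, abc1, is a transporter gene of that name and not of this pathway; it did not pass. Haem synthesis went the other way, with 0 rises and 4 falls among 9 genes (44.4%, against 24.8% of all genes) and a median of −0.36. Lowest were hem3 (−1.49 ± 0.13 SE), hem1 (−1.41 ± 0.12 SE) and hem2 (−0.89 ± 0.15 SE), which act early in the pathway. The entry ups1 is a separate gene in the annotation, which also gives ups1 as a synonym of hem4; it did not pass. The arrays of hem1 read −1.35 and −1.44 in the wild type and −1.52 and −1.33 in mmi1-ts3, all low and within a narrow range.

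ATP synthase and the chain have helpers that the naming rule misses. Of 24 measured, 6 rose (25%, against 23.1% of all genes) and 4 fell (16.7%, against 24.8%), near the background, with a median of −0.12. The largest change was that of inh1, the inhibitor that stops ATP synthase from running backwards, at 1.79 ± 0.18 SE (3.46-fold; limma, adjusted p = 0.000937). It read 2.26 and 1.44 in the wild type and 1.91 and 1.54 in mmi1-ts3, higher on the uncoded array of each strain and high on all 4. Next were ppr3, of a family of mitochondrial RNA-binding proteins (−1.22 ± 0.22 SE), and the insertase gene oxa102 (−1.17 ± 0.24 SE), which read −0.66 and −0.67 on the uncoded and −1.72 and −1.64 on the coded arrays. The ADP/ATP carrier gene anc1, the 1 carrier gene of its list of 4 that was measured, rose (0.92 ± 0.12 SE).

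Pyruvate dehydrogenase genes gave 1 rise, dld1 (0.99 ± 0.15 SE), which serves several dehydrogenases, and 1 fall, pdb1 (−0.71 ± 0.12 SE), among 5. That is 20% each way, against 23.1% and 24.8% of all genes. The gene pda1 (−0.29 ± 0.12 SE) did not pass. Glycolysis and fermentation gave 4 rises and 4 falls among 14 (28.6% each way), also near the background, with pgk1 at 1.62 ± 0.12 SE, pgi1 at 1.05 ± 0.11 SE and the pyruvate decarboxylase gene pdc101 at −0.71 ± 0.14 SE. Of 6 mitochondrial chaperone genes, 5 rose (83.3%, against 23.1% of all genes), with hsp78 at 4.37 ± 0.15 SE and hsp10 at 1.04 ± 0.12 SE. The other, mge1, fell (−1.54 ± 0.12 SE). Both hsp78 and hsp10 were among the heat shock genes used to read the direction of the ratios, so their rise is no separate result. Of 8 regulators, 2 rose and 1 fell (25% and 12.5%, against 23.1% and 24.8% of all genes), so the rises were near the background. The zinc finger gene rsv2 was at 2.12 ± 0.18 SE. The CCAAT-binding factor gene php2 did not pass, with 0.19 and 0.35 on the uncoded and 2.76 and 2.80 on the coded arrays, and neither did rsv1 (0.96 ± 0.41 SE). The gene php4, named after its values were seen, encodes the Php subunit that represses iron-using genes in iron shortage, and it fell (−0.89 ± 0.12 SE).

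**Figure D4:**
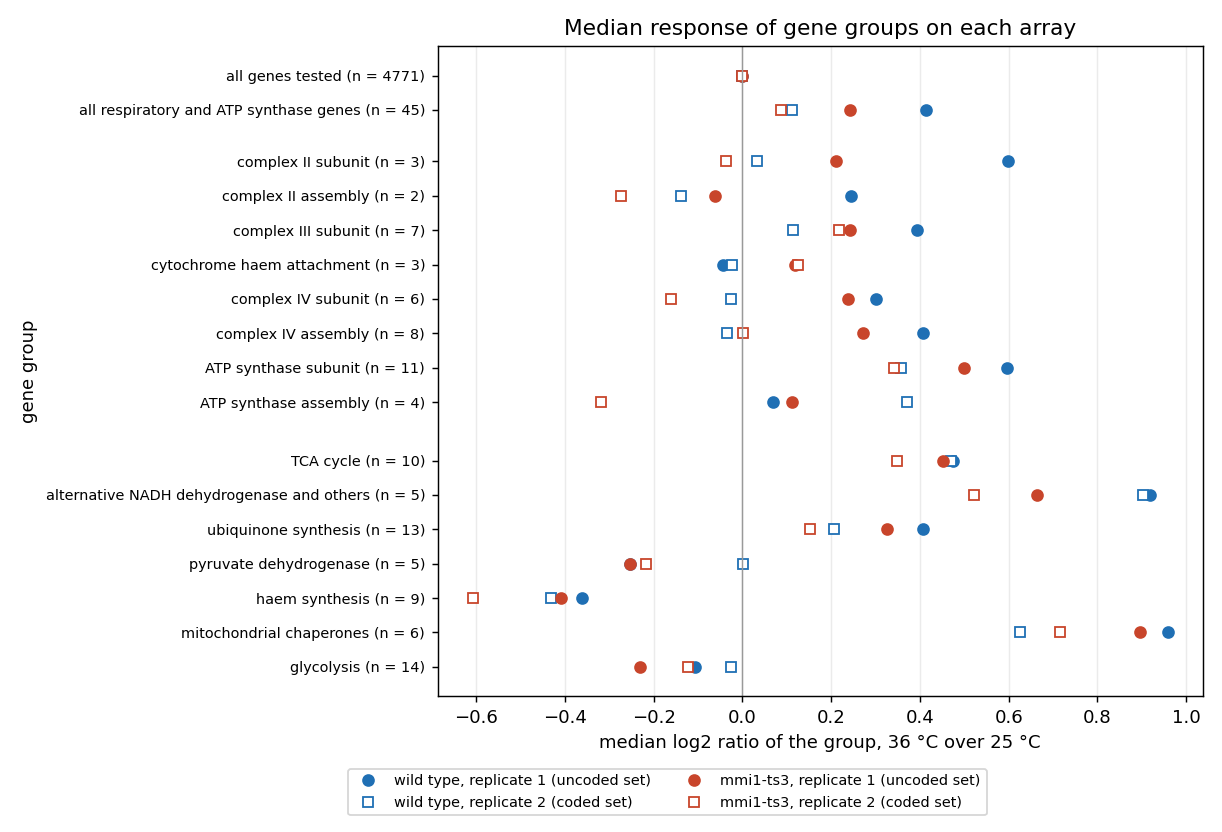
Median log2 ratio of 36 °C over 25 °C for gene groups on each of the 4 arrays (blue wild type, red mmi1-ts3, filled uncoded and open coded set), with the number of genes measured in brackets. The medians of ATP synthase subunits and of tricarboxylic acid cycle genes lie above 0 on all 4 arrays. That of haem synthesis genes lies below 0, and that of complex IV subunits changes sign between the sets.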

How the data were processed

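Each sample was 1 two-colour array comparing a strain at 36 °C with itself at 25 °C. The authors deposited 1 log ratio per spot, taken here as log2 from the values; the log base, direction, background correction and normalization are not given in the sources used here. The label field names Cy5 for channel 1 and the label protocol names Cy3. Of 5188 spots, 4933 pair with 1 gene, 1 with several and 254 with none in the platform annotation; 4930 matched the RefSeq gene table. Of 4880 genes, 4771 had a value on all 4 arrays and were tested. The arrays held 5121 to 5184 values; the number of arrays limits the precision.

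The median over those genes was subtracted from each array (medians −0.098 and 0.067 for the wild type, −0.002 and 0.102 for mmi1-ts3). limma 3.58.1 in R 4.3.3 fitted a mean per strain with moderated variances (2 residual and 3.56 prior degrees of freedom), for the response in each strain, their average and their difference, with Benjamini-Hochberg adjustment over all 4771 genes and a threshold of 0.05. The fit was tested on simulated data of 4771 genes, of which 200 were changed, without an array-set effect. The response over both strains recovered 59% of changes of 1 and 89% of changes of 2 on the log2 scale. The wild-type response recovered 32% and 78%, and the mmi1-ts3 response 27% and 79%. Many more genes were called in the real data, so these rates need not hold there. No true strain difference was simulated, so the power to find one is not known. Nothing states that the replicates were separate cultures, so p-values may measure technical spread.

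The members and gene lists were chosen with earlier results of these data known. Genes named are those called, the extremes of each class, cyc1, cyt1 and rip1, the 3 highest and 3 lowest strain differences among genes whose strains do not overlap, and up to 3 genes per further list. Alternatives were other centring, scaling and quantile normalization, a variance trend, genes on at least 3 arrays, the array set as a block, a threshold of 0.10, natural logarithms, leaving out each array and, chosen after seeing the data, centring on 51 neighbouring rows. Replicate numbers coincide with the array sets. No sequences are shown.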

Additional observations from a re-analysis of the deposited data

Results flagged for a closer look

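For 3 genes both arrays of one strain lay on the other side of 0 from both arrays of the other strain. The complex IV subunit gene cox5 read 0.14 and 0.06 in the wild type and −0.07 and −0.37 in mmi1-ts3, a strain difference of −0.32 ± 0.24 SE. The complex III core gene qcr1 lay below 0 in the wild type and above it in mmi1-ts3, a difference of 0.37 ± 0.24 SE. The gene cyt2 read −0.04 and −0.02 in the wild type and 0.12 and 0.13 in the mutant, a difference of 0.16 ± 0.23 SE. All 3 differences were tested with limma and did not pass (adjusted p = 0.998 for each). The values of cyt2 lay close to 0, whereas cox5 reached −0.37 on mmi1-ts3 replicate 2 and qcr1 reached −0.34 on wild-type replicate 2.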

How the results depend on the processing

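The 43 results compared were each call reported for a gene, the uncalled extremes of classes and cyt1, and 7 strain differences. All kept direction and side of the threshold with genes on at least 3 arrays, with the array set as a block and at 0.10. A threshold of 0.10 can lose no call and the block leaves every mean unchanged, so neither could turn a direction. With a variance trend 41 kept both, with scaling 41, and with centring on neighbouring rows, chosen after seeing the data, 31. Every fit with 1 array left out, which leaves 1 array for that strain, kept fewer of the 43 than any of these settings. The block on array set, which is also the replicate pairing by number, lost no call, gained qcr8 over both strains and raised the wild-type count of higher genes to 9 and the mmi1-ts3 count to 8. At 0.10 the counts were 10 higher and 2 lower in the wild type and 11 higher in mmi1-ts3. Centring on neighbouring rows gave 8 higher and 2 lower in the wild type, 4 lower in mmi1-ts3, and 5 genes of the whole table higher in the strain difference; it turned cox4 to −0.026, cox9 to 0.0085, cyt1 to −0.15 and qcr1 to 0.011. Without centring qcr1 was 0.016 and sdh6 0.00025, with quantile normalization qcr1 was 0.0012, and with scaling sdh6 was 0.0034; these means lie so near 0 that small shifts change their sign.

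Leaving out 1 array at a time gave 0 to 4 genes higher and 0 to 1 lower in the wild type, 0 to 4 and 1 to 2 in mmi1-ts3, and 4 to 12 and 1 to 3 over both strains. Over all genes it gave 353 to 680 higher and 296 to 666 lower in the wild type, 367 to 819 and 514 to 974 in mmi1-ts3, and 0 to 2 higher in the strain difference. Means that changed sign ran from −0.27 to 0.018 for atp20, −0.077 to 0.075 for qcr1, −0.10 to 0.30 for sdh1, −0.23 to 0.19 for sdh6, −0.33 to 0.03 for cox16, −0.60 to 0.30 for cox19, −0.13 to 0.01 for cox5, −0.11 to 0.12 for cox6 and −0.03 to 0.20 for cox13; none of these was called over both strains with all arrays. These fits have fewer arrays; otherwise the cause was not tested. With natural logarithms every change would be larger in log2 units and no call would move. Other background corrections and a filter on dim spots were not run, since the table holds ratios without intensities.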
